A study of Mus musculus with 20 samples.

Results

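The comparison described here sets 3 hypothalamus arrays of mice given celastrol for 4 days against 3 arrays of mice given the vehicle for 4 days, 6 of the 20 arrays in the series. The arrays were chosen by their titles, and every gene with a probe set of 1 gene symbol entered, each gene through its brightest probe set. After the dimmest probe sets were left out, 14129 genes were tested. All mice of the series were male C57BL/6J animals made obese by diet: from 4 weeks of age they ate a chow with 45% fat for 16 weeks. The vehicle group received DMSO into the peritoneum, 25 µl per day, and the other group received celastrol in the same solvent. The labels of the celastrol arrays also give a volume of 100 µl, which those of the vehicle arrays do not. The labels place a celastrol dose of 250 µg/kg beside the 6 h time only, so the dose at 4 days is taken here as not separately given. The other 14 arrays come from the same design at 6 h and 1 day, with 3 vehicle and 4 celastrol arrays at each time. Arrays of 1 group are labelled as biological replicates, with no batch or scan date, and the number of mice behind each RNA is not stated, so the p-values measure the spread between these arrays. There was no lean group and no pair-fed group among the arrays used here, so the obese state is shared by every sample.

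Celastrol is a triterpenoid of the thunder god vine, known for lowering food intake and body weight in obese mice and for a link to leptin sensitivity. The hypothalamus senses leptin, insulin and nutrients, and its arcuate nucleus holds the appetite-restraining Pomc neurons and the appetite-promoting Npy neurons. It also starts the stress response, in which the adrenal gland releases glucocorticoids. The glucocorticoid receptor then binds DNA at paired short motifs and raises genes such as Sgk1, a kinase that regulates ion channels, Fkbp5, a brake on the receptor itself, and Nfkbia, which keeps NF-kB out of the nucleus.

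The tissue label was checked on genes of hypothalamic neurons. On a log2 scale whose 25th percentile over all probe sets lay at 7.04, Pmch, the melanin-concentrating hormone of the lateral hypothalamus, was at 12.87 to 13.02 over the 6 arrays, and Hcrt, the orexin precursor, at 12.48 to 12.94. Oxt and Avp, hormones of the magnocellular neurons, lay at 11.66 to 12.03 and 11.13 to 11.56. Nkx2-1, a transcription factor of the developing ventral hypothalamus, lay at 9.67 to 9.87. Each of these genes overlapped between the groups. Cga, the shared subunit of pituitary hormones, spread from 7.26 to 10.91 over the 6 arrays, with 7.72, 10.91 and 10.34 in the vehicle group and 7.35, 9.65 and 7.26 in the celastrol group. The spread of Cga was thus larger within each group than the difference between their means, and the part of pituitary tissue in other results was not tested.

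The 4-day arrays themselves were alike. Within a group their correlation over the tested genes was at least 0.9957, and none stood apart on the first component of the residuals, where they ran from -4.36 to 4.67. Of the vehicle arrays of the other times, 2 did stand apart there, replicate 3 at 6 h with 11.4 and replicate 3 at 1 day with 9.61. They enter the 4-day test only through the shared estimate of the spread.

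The differences at 4 days were small. The median absolute log2 difference over all genes was 0.047, and 99% of genes differed by less than 0.26. Only 15 of the 14129 genes, 0.106%, differed by at least 1.5-fold, and 2 by at least 2-fold. By limma, 9 genes passed the threshold of an adjusted p under 0.05, 0.0637% of those tested. Of these, 6 were higher with celastrol (0.0425%) and 3 lower (0.0212%). At an unadjusted p under 0.05 there were 922 genes, or 6.53%, with 600 higher (4.25%) and 322 lower (2.28%). The 3 celastrol arrays all lay outside the range of the 3 vehicle arrays for 14.4% of genes, 8.89% above it and 5.47% below it.

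Genes known to rise with glucocorticoids held the largest call. A promoter of Sgk1 is shown, since Sgk1 had the largest change of the 9 genes and belongs to the glucocorticoid-induced list. The sequence is 250 bases upstream of an internal RefSeq start of Sgk1, on the plus strand of GRCm38.p6 at chr10:21993640-21993889. Capitals mark the receptor's 6-base motif and the bases between its paired copies.

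Sgk1 promoter: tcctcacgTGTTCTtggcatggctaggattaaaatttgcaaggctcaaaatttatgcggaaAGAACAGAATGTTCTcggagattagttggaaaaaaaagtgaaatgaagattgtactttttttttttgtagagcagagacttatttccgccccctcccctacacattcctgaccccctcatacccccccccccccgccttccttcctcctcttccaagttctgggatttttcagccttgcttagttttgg

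The motif searched was AGAACA on either strand, read as TGTTCT on the other. It began 242, 189 and 180 bases before this start, and the copies at 189 and 180 form a palindrome, AGAACA and TGTTCT set 3 bases apart. Among the windows of Sgk1 the one printed held the most copies, and some held none. The motif was present in 12.8% of the 14446 promoter windows of 300 bases that RefSeq gave for 11324 of the tested genes, and in 5 of the 18 windows of the 9 genes past the threshold. Those 5 windows belong to 2 genes, Sgk1 and Gjb1. By gene, that is 2 of 9 or 22.2%, against 15.1% of the 11324 genes with a window. In the glucocorticoid-induced list 3 of the 20 genes with a window held the motif, or 15%. The palindrome was present in 1 of the 14446 windows, the one printed, and that search was added after the spacing of its motifs had been seen. A motif that STAT proteins bind, TTC and GAA set 3 bases apart, was in 1 of the same 18 windows, another one of Sgk1, and in 6.77% of all. These matches describe letters in a window, and no binding was measured.

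Sgk1 itself (chromosome 10, 21882184 to 21999903, GRCm38.p6) rose with celastrol. Its log2 level was 9.54, 9.72 and 10.01 in the vehicle arrays and 10.33, 10.60 and 10.69 in the celastrol arrays. The groups did not overlap, and the difference was 0.78 ± 0.13 (SE), or 1.72-fold, with an adjusted p of 0.0413. The other members of the glucocorticoid-induced list were mostly higher but did not pass. Nfkbia was at 9.12, 9.14 and 9.38 with vehicle and at 9.56, 9.87 and 10.26 with celastrol, a difference of 0.68 ± 0.13 with an adjusted p of 0.0501. Ddit4, an inhibitor of the growth kinase mTORC1, was at 9.05, 9.26 and 9.41 against 9.64, 9.79 and 10.12, a difference of 0.61 ± 0.11 at the same adjusted p. Both lay just outside the threshold with all celastrol arrays above all vehicle arrays. Arrdc2 differed by 0.65 ± 0.13 (adjusted p = 0.0938) and Per1, a clock gene with glucocorticoid response elements, by 0.23 ± 0.054 (adjusted p = 0.187), again without overlap. Fkbp5 was at 8.61, 8.85 and 8.78 against 8.93, 9.18 and 9.99. Its difference of 0.61 ± 0.18 leaned on the third celastrol array and did not pass (adjusted p = 0.430). Tsc22d3, which encodes the glucocorticoid-induced leucine zipper, differed by 0.23 ± 0.12 with overlapping arrays (adjusted p = 0.805).

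Over the whole list, 20 of 21 tested members were higher with celastrol, where 54.4% of all genes were. In that direction 13 had an unadjusted p under 0.05, and none in the other, against 4.25% and 2.28% of all genes, and 1 of the 21 passed the adjusted threshold, against 0.0425%. This list and those below were chosen with earlier results of these data known, so such counts are descriptions and not tests. The median log2 difference of the members was 0.36, beside 0.0075 over all genes. Averaged over the 21 genes, the vehicle arrays lay at 9.42, 9.57 and 9.63 and the celastrol arrays at 9.72, 9.91 and 10.38. The third celastrol array was the highest of all 20 arrays in this average, and without it the median fell from 0.36 to 0.16, with 19 of 21 members still higher. Genes of the stress axis itself gave a different picture: of 14 hypothalamic peptides and corticosteroid receptors, 6 were higher and 8 lower, none had an unadjusted p under 0.05, and the median was -0.015. Crh, the peptide that starts the stress response, was at 7.16, 6.90 and 7.16 with vehicle and 7.38, 6.74 and 6.92 with celastrol. Its difference of -0.059 had a 95% interval of -0.42 to 0.30.

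The levels of these genes in vehicle mice are given by time, with no test of the list between times. The 21-gene average lay at 9.72 to 10.26 in the vehicle arrays of 6 h, at 9.46 to 9.58 at 1 day and at 9.42 to 9.63 at 4 days. For Sgk1 the vehicle mean was 10.45 at 6 h, 9.51 at 1 day and 9.76 at 4 days, while the celastrol mean was 10.67, 10.67 and 10.54. The celastrol means of Sgk1 therefore differed little between the times, and the vehicle means by more. The drop of vehicle Sgk1 from 6 h to 4 days, 0.69, did not pass on its own (adjusted p = 0.0587).

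**Figure D1:**
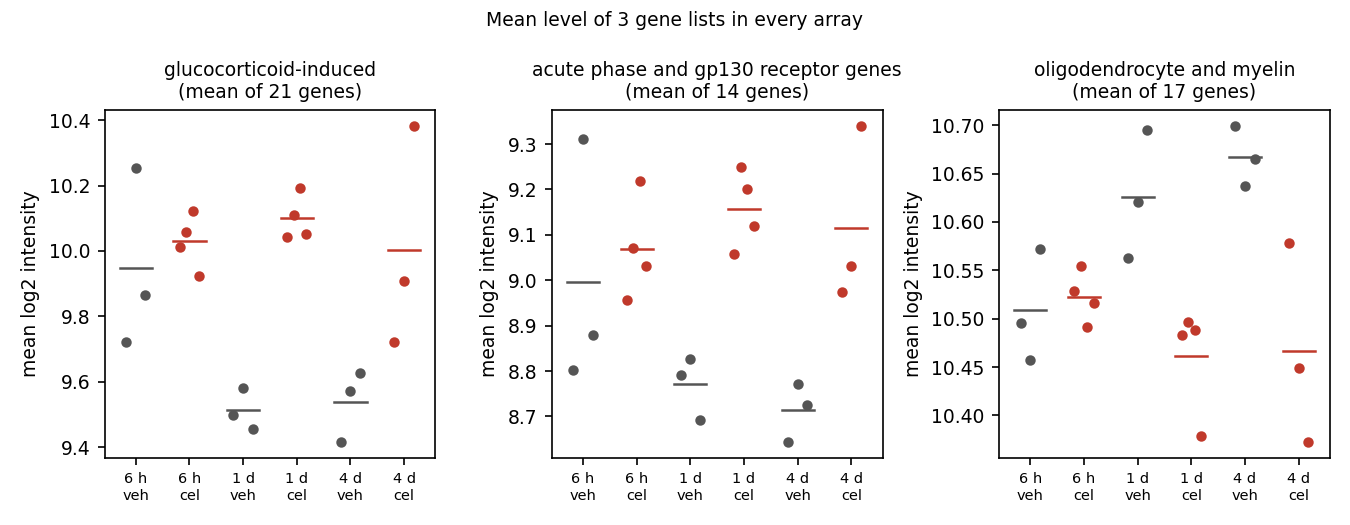
Mean log2 intensity of the members of 3 gene lists (y axis) in every array, by time and treatment (x axis, veh is vehicle and cel is celastrol); points are arrays and lines are group means. At 4 days the glucocorticoid average runs from 9.42 to 9.63 with vehicle and from 9.72 to 10.38 with celastrol, and the myelin average from 10.64 to 10.70 against 10.37 to 10.58.

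Enzymes of lipid metabolism, 3 in number, also rose. Acer2 (chromosome 4, 86874348 to 86932524), an alkaline ceramidase of the Golgi that splits ceramide into sphingosine and fatty acid, was at 8.53, 8.43 and 8.57 with vehicle and at 8.92, 9.28 and 9.37 with celastrol. The difference was 0.68 ± 0.12, or 1.60-fold (adjusted p = 0.0413). At 6 h the vehicle arrays of Acer2 were at 8.92, 9.27 and 9.05, overlapping its celastrol arrays of 4 days. A second, dim probe set of Acer2 differed by 0.050, and the mean of both probe sets gave 0.36 and did not pass. Cyp4f15 (chromosome 17, 32685631 to 32703352), a cytochrome P450 that hydroxylates fatty acids and eicosanoids, was at 9.11, 9.22 and 9.14 against 9.58, 9.43 and 9.65. It rose by 0.40 ± 0.071, or 1.32-fold (adjusted p = 0.0413). Pla2g4e (chromosome 2, 120166412 to 120245630), a calcium-dependent enzyme that transfers acyl chains to make precursors of endocannabinoids, was at 7.81, 7.91 and 7.78 against 8.22, 8.09 and 8.11. It rose by 0.30 ± 0.054, or 1.24-fold (adjusted p = 0.0413).

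Acer2, Cyp4f15 and Pla2g4e were each the single call in their families, where 0.0425% of all genes were called higher and 54.4% were higher. Of 18 ceramide and sphingosine enzymes 13 were higher and 1 passed, with a median of 0.024, which was 0.0030 with 10 of 18 higher after quantile normalization and 0.0052 with 10 of 18 higher without vehicle replicate 2. Of 5 Cyp4 hydroxylases 4 were higher and 1 passed, with a median of 0.031, or 0.075 with 3 higher without celastrol replicate 1 and 0.092 over the 3 genes left by a filter at the 50th percentile. Of 16 phospholipase A2 and prostaglandin genes 10 were higher and 1 passed, with a median of 0.023, or 0.065 without celastrol replicate 3. Ptgs2, the inducible cyclooxygenase of that last group, lay at 7.67, 7.69 and 8.0 with vehicle and at 8.40, 8.24 and 8.85 with celastrol. Its difference of 0.71 ± 0.15 did not pass (adjusted p = 0.151). In the vehicle group the mean of Cyp4f15 was 9.53 at 6 h, 9.21 at 1 day and 9.16 at 4 days, and the difference between 4 days and 6 h did not pass (limma, adjusted p = 0.0584).

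Of the 10 tested genes known from blood leukocytes, 2 passed the threshold upward, where 0.0425% of all genes did. Both were at low levels. Fyb (chromosome 15, 6522796 to 6665608), an adaptor of T cell and myeloid signalling, was at 7.57, 7.39 and 7.44 with vehicle and at 8.03, 7.77 and 7.87 with celastrol. It rose by 0.42 ± 0.066, or 1.34-fold (adjusted p = 0.0257). Csf3r (chromosome 4, 126023441 to 126044975), the receptor of granulocyte colony-stimulating factor on neutrophils, was at 7.53, 7.47 and 7.58 against 7.83, 7.78 and 7.86. It rose by 0.30 ± 0.050, or 1.23-fold (adjusted p = 0.0413). For neither gene did the groups overlap, where 8.89% of all genes had every celastrol array above every vehicle array. The celastrol values of Csf3r at 4 days, the lowest 7.78, lay narrowly above all 9 vehicle arrays of the series, whose highest was 7.75. Csf3r was lower in the vehicle arrays of 4 days than in those of 6 h (7.65 to 7.75) and 1 day (7.66 to 7.75).

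Of the 8 other tested genes of the blood leukocyte list 2 were higher, Cd52 by 0.077 and Coro1a by 0.027, and 6 were lower, none past the threshold. The median of all 10 members was -0.074, and it was -0.031 without celastrol replicate 1 and -0.12 without celastrol replicate 2. With no filter on dim genes it was -0.0045, with 9 of 19 higher. Lcp1, an actin-bundling protein of leukocytes, differed by -0.24, and Mmp9, a neutrophil protease, by -0.11. Of 16 microglial genes 7 were higher and none passed. C1qb, a complement subunit made by microglia, was at 10.81, 11.05 and 11.10 against 11.43, 11.24 and 11.17, a difference of 0.30 ± 0.095 (adjusted p = 0.496). P2ry12, a receptor of surveying microglia, was at 8.45, 8.33 and 8.28 against 8.25, 8.14 and 7.84, a difference of -0.28 ± 0.097 (adjusted p = 0.585). These arrays measure whole tissue, in which fewer cells of a type and less RNA per cell cannot be told apart.

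The genes that fell were 3. Pax6 (chromosome 2, 105668896 to 105698410), a transcription factor of neural progenitors and of some neurons, had the smallest p of all genes. It was at 8.59, 8.50 and 8.47 with vehicle and at 8.03, 7.87 and 8.07 with celastrol, a change of -0.53 ± 0.073, or 1.44-fold lower (adjusted p = 0.00948). The celastrol arrays of 4 days lay below every other array of the series. All 9 vehicle arrays held 8.35 to 8.68, the celastrol arrays of 6 h 8.37 to 8.45 and those of 1 day 8.14 to 8.20. Around Pax6, 6 of 20 radial glia and progenitor genes were higher, where 54.4% of all genes were, and the median was -0.050. Pax6 was the only one of the 20 past the threshold, where 0.0212% of all genes passed downward. Sox2, a factor that maintains progenitors, differed by -0.21 and its relative Sox3 by -0.21, with 5 members in all at an unadjusted p under 0.05 downward, against 2.28% of all genes, and 1 upward, Fabp7, against 4.25%. Without celastrol replicate 1 the median was -0.086.

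Gjc3 and Gjb1 encode connexins, the subunits of gap junction channels, and both are made by oligodendrocytes, the myelinating glia. Gjc3 (chromosome 5, 137950992 to 137963098) was at 12.04, 11.95 and 12.09 with vehicle and at 11.84, 11.68 and 11.57 with celastrol. It fell by 0.33 ± 0.059 on the log2 scale, 1.26-fold (adjusted p = 0.0413). Its vehicle arrays of 6 h, at 11.72, 11.69 and 11.74, lay within the celastrol range of 4 days. Gjb1 (chromosome X, 101376376 to 101385629) was at 8.05, 8.01 and 7.98 against 7.76, 7.69 and 7.65. It fell by 0.31 ± 0.057, 1.24-fold (adjusted p = 0.0429). Its vehicle arrays of 6 h were at 7.93, 7.81 and 7.70, the last within the celastrol range of 4 days. Of the 11 tested connexins 10 were lower, with a median of -0.12, or -0.078 with no filter on dim genes. The astrocyte connexin Gja1 differed by -0.12 and did not pass.

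Other genes of the oligodendrocyte lineage lay in the same direction. Of 17 myelin and oligodendrocyte genes 16 were lower, Gjc3 and Gjb1 among them, where 45.6% of all genes were. Among the 17, 11 had an unadjusted p under 0.05 downward, against 2.28% of all genes, and the 2 connexins passed, against 0.0212%. The list was drawn up with earlier results of these data known, so these shares are a description and not a test. The median was -0.20, or -0.13 without vehicle replicate 1, with 16 of 17 lower in both. Averaged over the 17 genes, the vehicle arrays lay at 10.70, 10.64 and 10.66 and the celastrol arrays at 10.58, 10.45 and 10.37, without overlap. Ugt8a, the enzyme that makes the myelin lipid galactosylceramide, was at 10.62, 10.44 and 10.45 against 10.43, 10.14 and 10.01, a difference of -0.31 ± 0.094 that did not pass (adjusted p = 0.456). Opalin, a membrane protein of myelinating cells, was at 9.35, 9.27 and 9.28 against 8.99, 9.09 and 8.42 (-0.47 ± 0.19, adjusted p = 0.714). Mbp, myelin basic protein, stayed near the top of the scale at 12.60 to 12.67 in all 6 arrays, and its difference was -0.033 with a 95% interval of -0.12 to 0.05.

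Of the 10 precursor genes 7 were lower with a median of -0.013 (-0.032 without vehicle replicate 1), but the lineage factors within that list differed by more. Sox10, which drives myelin genes, was at 9.34, 9.44 and 9.50 against 9.32, 9.16 and 9.01 (-0.26 ± 0.070, adjusted p = 0.343). Olig2, which specifies the lineage, differed by -0.21 ± 0.057 (adjusted p = 0.416), while Pdgfra, the receptor that marks precursors, differed by 0.015. The vehicle average of the myelin genes, whose difference between times was not tested, lay at 10.46 to 10.57 in the vehicle arrays of 6 h, at 10.56 to 10.70 at 1 day and at 10.64 to 10.70 at 4 days. The ranges at 6 h and 1 day overlapped, as did those at 1 day and 4 days. Of the 3 celastrol arrays of 4 days 1 lay just above the vehicle range of 6 h (10.5785 against 10.5724). The other 2 lay below it, 1 of them narrowly (10.4494 against 10.4577). The mean was 10.51 with vehicle at 6 h, 10.67 with vehicle at 4 days and 10.47 with celastrol at 4 days.

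**Figure D2:**
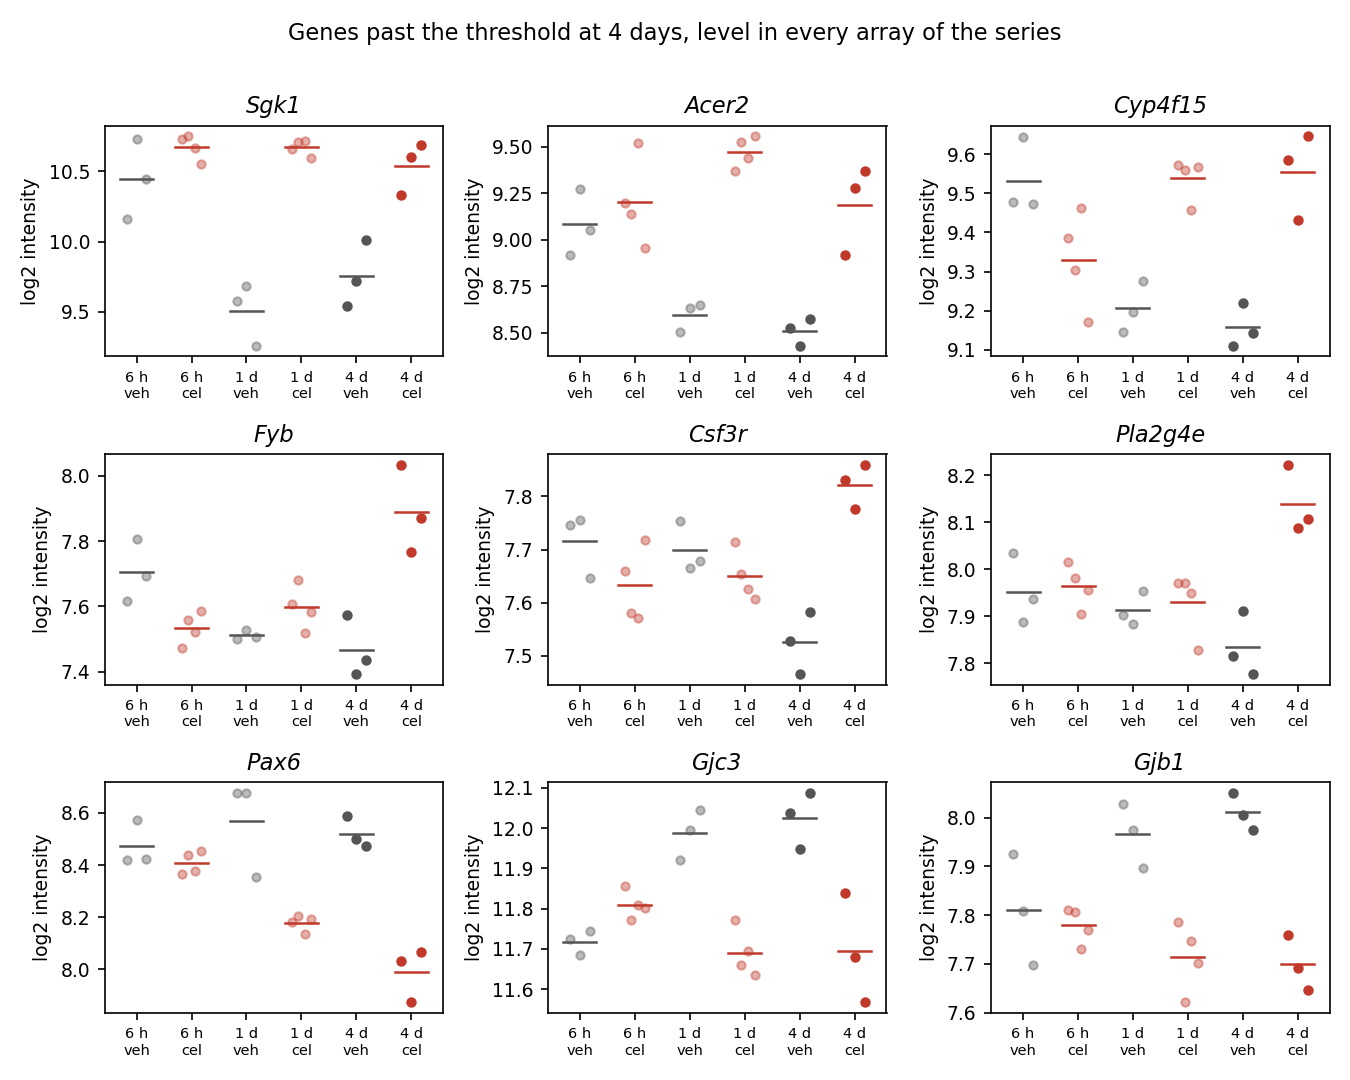
Log2 intensity (y axis) of the 9 genes past the threshold at 4 days in all 20 arrays, by time and treatment (x axis); points are arrays, solid at 4 days, and lines are group means. In each panel the 3 celastrol arrays of 4 days lie on 1 side of the 3 vehicle arrays, and for Pax6 they lie at 7.87 to 8.07, below every other array.

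The 9 calls were fragile. Their direction was the same in every alternative run, but the count ranged from 0 to 20 when 1 array was left out. Among the vehicle arrays of 4 days, dropping replicate 1, 2 or 3 left 1, 0 or 2 calls (777 genes had an unadjusted p under 0.05 where none passed). Among the celastrol arrays, dropping replicate 1, 2 or 3 left 20, 3 or 1. With the 6 arrays of 4 days fitted alone, 2 genes passed and neither was among the 9. In that fit Pax6 had an adjusted p of 0.0545 and Gjc3 one of 0.403, and the other 7 lay between these. Pax6 passed in 14 of 17 alternatives and Fyb in 12 of 17. Sgk1 passed in 10 of 18, Gjc3 in 9 and Cyp4f15 in 8 of 18, Csf3r and Gjb1 in 7 of 17, and Acer2 and Pla2g4e in 5.

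The largest differences of all did not pass. The largest fall was that of the pituitary gene Cga, -1.57, with the wide spread within each group given above. Lcn2, the secreted acute phase protein lipocalin 2, was at 6.61, 6.74 and 6.93 with vehicle and at 8.40, 8.19 and 10.77 with celastrol. All celastrol arrays lay above the vehicle arrays, but the third was far above the other 2, and the difference of 2.36 ± 0.60, or 5.13-fold, had an adjusted p of 0.287. Osmr, a receptor subunit for oncostatin M, was at 7.78, 7.94 and 8.11 against 8.43, 8.89 and 9.46 (0.99 ± 0.23, adjusted p = 0.214). Serpina3n, a protease inhibitor made by reactive astrocytes, was at 11.93, 11.99 and 11.94 against 12.28, 12.28 and 12.22 (0.31 ± 0.075, adjusted p = 0.239). Of 14 acute phase and gp130 receptor genes 13 were higher, against 54.4% of all genes, and 6 had an unadjusted p under 0.05 upward, against 4.25%. None passed, and the median was 0.16. Lcn2 also belongs to the glucocorticoid list, so these counts are not separate. Ch25h, which makes the oxysterol 25-hydroxycholesterol, was at 6.65, 6.51 and 6.62 against 7.62, 7.53 and 7.39, a difference of 0.92 ± 0.25 (adjusted p = 0.374). The Ch25h arrays did not overlap and were tight within each group at 4 days, and it was 1 of the 2 genes past the threshold when the 6 arrays were fitted alone (adjusted p = 0.00506). Of 14 NF-kB targets and cytokines 8 were higher, with a median of 0.047, and without vehicle replicate 1 or 3 it was 7 of 14, with medians of 0.016 and 0.00015. In the full set Nfkbia, Ptgs2 and Ch25h were the 3 at an unadjusted p under 0.05.

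Genes of leptin signalling and appetite moved little. Of 19 leptin pathway genes 13 were higher, against 54.4% of all genes, and 3 had an unadjusted p under 0.05 upward, against 4.25%. None passed, and the median was 0.069, or 0.033 without celastrol replicate 3. Lepr, the leptin receptor, was at 8.01, 7.98 and 7.90 with vehicle and at 8.16, 8.03 and 8.09 with celastrol. The groups did not overlap, and the difference of 0.13 had a 95% interval of -0.02 to 0.27. Socs3, the inhibitor that leptin signalling induces, differed by 0.15 (interval -0.05 to 0.34), with 7.99, 8.07 and 8.0 against 8.19, 8.13 and 8.17, while its second, dimmer probe set differed by -0.026. Ptpn1, a phosphatase that damps leptin and insulin receptors, differed by 0.13 (interval 0.01 to 0.24), and Stat3, the transcription factor of the leptin receptor, by 0.13 (interval 0.03 to 0.23). Their adjusted p values were 0.805 for Lepr, 0.876 for Socs3, 0.739 for Ptpn1 and 0.614 for Stat3.

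Among 21 melanocortin and satiety genes 10 were higher, none had an unadjusted p under 0.05, and the median was -0.0038. Dropping vehicle replicate 3 made that median -0.029, dropping celastrol replicate 1 made it -0.030 and dropping celastrol replicate 3 made it 0.029. Pomc, the precursor of the melanocortin peptides, was at 8.63, 9.08 and 8.74 against 8.61, 8.63 and 8.71, a difference of -0.17 with a 95% interval of -0.47 to 0.13. Cartpt, a peptide of the same neurons, differed by -0.082 (interval -0.26 to 0.10) and Mc4r, the receptor for those peptides, by 0.089 (interval -0.03 to 0.21). Of 13 orexigenic genes 10 were higher, against 54.4% of all genes, with a median of 0.023. By limma 1 had an unadjusted p under 0.05 upward, against 4.25% of all genes, and none passed. Gal, that gene, was at 10.82, 10.89 and 10.78 with vehicle and at 11.03, 11.02 and 10.94 with celastrol. Its groups did not overlap. Npy, the peptide that promotes feeding, was at 10.41, 10.68 and 10.61 against 10.71, 10.83 and 10.68 (0.17, interval -0.04 to 0.38). The intervals of Pomc and Npy both include 0, and that of Npy reaches a rise of 0.38.

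The stress responses that celastrol evokes in cultured cells, heat shock and antioxidant genes, were not seen to rise as whole lists at this time. Of 17 heat shock chaperones 3 were higher, where 54.4% of all genes were, and the median was -0.056. At an unadjusted p under 0.05 by limma, 1 was higher, against 4.25% of all genes, and 1 lower, against 2.28%. Bag3, the higher one, was at 8.88, 8.93 and 8.79 with vehicle and at 8.88, 9.03 and 9.09 with celastrol. Hspa1a, the inducible HSP70, differed by 0.036 (interval -0.13 to 0.21), and the lens and glial chaperone Cryab by -0.28 ± 0.063 (adjusted p = 0.175), with 12.33, 12.09 and 12.06 against 11.86, 11.84 and 11.94. Of 16 NRF2 targets 8 were higher, with a median of 0.00071, and Hmox1, heme oxygenase 1, differed by 0.015 (interval -0.13 to 0.16). Of 22 genes of the unfolded protein response 6 were higher with a median of -0.054. At an unadjusted p under 0.05 by limma, 1 of the 22 was higher and 2 were lower. Ern1, the higher one, was at 9.15, 9.16 and 9.21 against 9.26, 9.25 and 9.28, without overlap, as were 8.89% of all genes in that direction. Hspa5, the chaperone BiP, differed by -0.079 (interval -0.22 to 0.06), and Sdf2l1, another chaperone of the endoplasmic reticulum, by -0.28 ± 0.071 (adjusted p = 0.255), with 9.95, 9.83 and 9.83 against 9.66, 9.55 and 9.55. No gene of these 3 lists passed. The interleukin-1 receptor family gave 3 of 10 members higher and a median of -0.039, and Il1rn, the receptor antagonist, differed by -0.036 (interval -0.24 to 0.16).

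Markers of other cell types and regions are given beside the 54.4% of all genes that were higher and their median of 0.0075. Of 18 pan-neuronal genes 8 were higher (median -0.010), of 16 mature astrocyte genes 10 (median 0.030), of 18 endothelial genes 6 (median -0.063), of 12 thalamic genes 6 (median 0.0058) and of 19 genes of hypothalamic nuclei 10 (median 0.014). Without celastrol replicate 3 the endothelial list turned to 11 of 18 higher (median 0.031), the astrocyte list to 8 of 16 (median -0.0063) and the thalamic list to 3 of 12 (median -0.055). Without vehicle replicate 1 the thalamic list had 5 of 12 higher (median -0.041). Other lists lay lower: 1 of 6 pituitary genes was higher (median -0.14), 3 of 9 choroid plexus genes (median -0.086), 2 of 8 skeletal muscle genes (median -0.047) and 0 of 2 red blood cell genes (median -0.20). Within the endothelial list the genes did not move as 1 group. Cldn5, a tight junction protein of the blood-brain barrier, was at 10.18, 10.04 and 10.09 against 10.02, 9.66 and 9.55 (-0.36 ± 0.11, adjusted p = 0.456). Slc2a1, the glucose transporter of the same barrier, was at 12.24, 12.32 and 12.41 against 12.47, 12.66 and 12.89 (0.35 ± 0.098, adjusted p = 0.413). All 11 meningeal genes were lower, with a median of -0.088 and none at an unadjusted p under 0.05. The part of dissection in the results above was not tested.

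**Figure D3:**
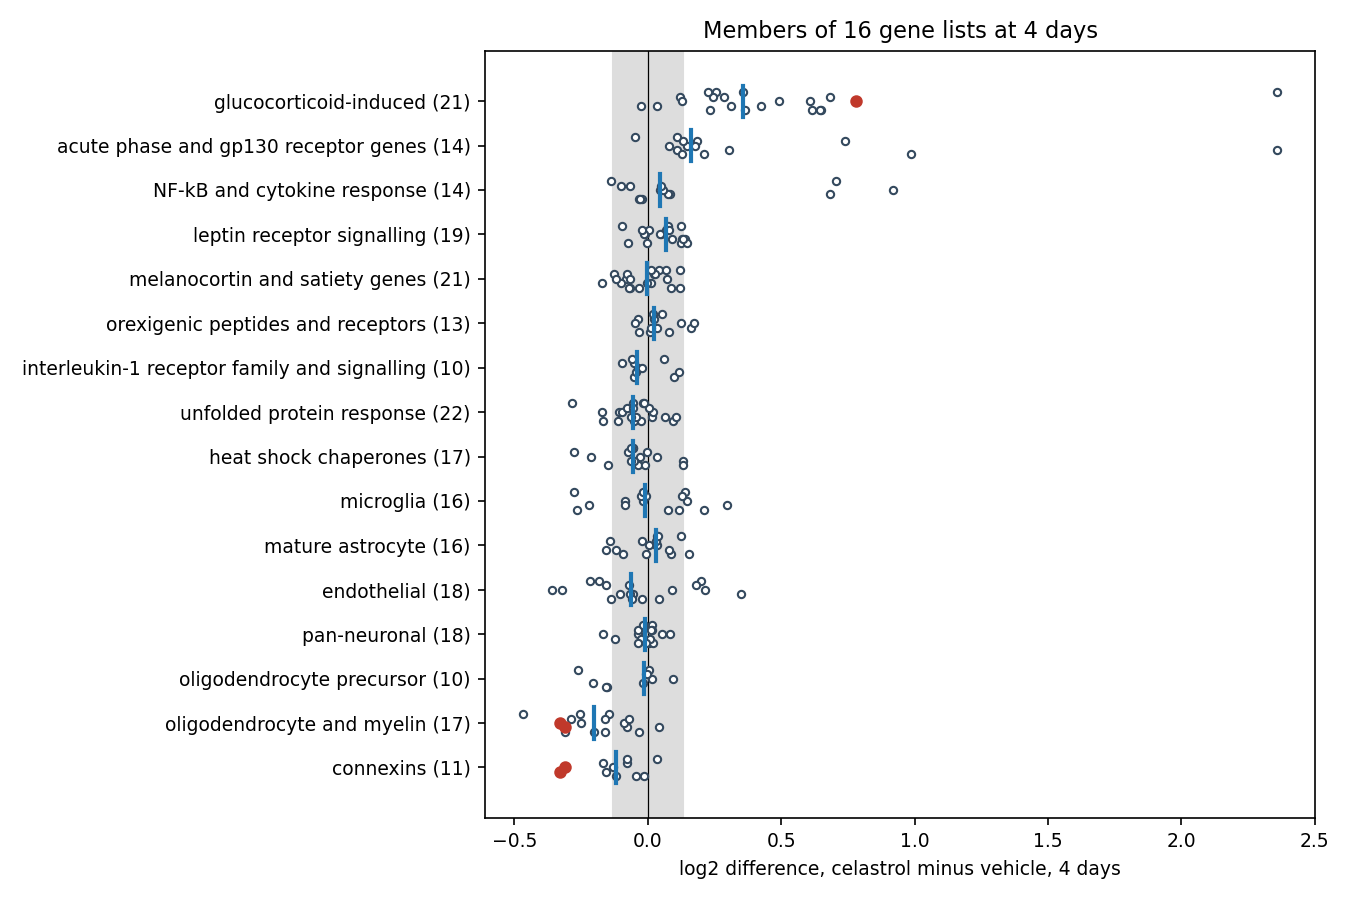
Log2 difference at 4 days, celastrol minus vehicle (x axis), of each tested member of 16 gene lists (y axis, number of members in brackets); filled points passed the threshold, blue bars are list medians and the grey band holds the 5th to the 95th percentile of all genes (-0.13 to 0.13). The glucocorticoid median lies at 0.36 and the myelin median at -0.20, while the leptin, satiety and orexigenic members lie mostly within the band.

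The 4-day differences were set beside those of 1 day, which rest on other arrays and share only the estimate of the spread. At 1 day 60 genes had passed the threshold, 0.425% of those tested, 51 higher (0.361%) and 9 lower (0.0637%). Of these, 59 kept their direction at 4 days, 51 of the higher and 8 of the lower ones, where 61% of all genes had the same sign at both times. Of the 60, 48 had an unadjusted p under 0.05 at 4 days in the direction of 1 day, and 6 passed the adjusted threshold: Sgk1, Acer2, Cyp4f15, Pax6, Gjc3 and Gjb1. The median of the 51 higher genes was 0.46 at 1 day and 0.28 at 4 days, and that of the 9 lower genes -0.30 and -0.24. The 60 genes were chosen for their 1-day values, so that the smaller size in 56 of them at 4 days is a description and not a test. When the 2 vehicle arrays that stand apart were left out, 40 genes passed at 1 day and 39 of them kept their direction.

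Among the genes with the largest rises at 1 day, Ch25h went from 1.42 to 0.92, Osmr from 1.19 to 0.99, Scgb3a1, a secretoglobin, from 1.17 to 0.72, Sgk1 from 1.16 to 0.78 and Ptgs2 from 1.03 to 0.71. Among the falls, Cldn5 went from -0.61 to -0.36, Pax6 from -0.39 to -0.53, Map6d1 from -0.32 to -0.22 and Gjc3 from -0.30 to -0.33. None of these 9 differed between the 2 times by the test of the difference (adjusted p = 1.00 for each). Fyb, Csf3r and Pla2g4e were not among the 60. Their differences at 1 day were 0.086, -0.049 and 0.016.

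By that test 1 gene did differ between 4 days and 1 day, 0.00708% of all. Fabp7, which binds fatty acids in astrocytes and progenitors, was lower by 0.57 with celastrol at 1 day (adjusted p = 0.000486) and at 4 days was at 12.51, 12.61 and 12.50 with vehicle and 12.60, 12.78 and 12.73 with celastrol. The 4-day difference of 0.17 did not pass, and the effect at 4 days exceeded that at 1 day by 0.74 ± 0.098 (adjusted p = 0.00631). Against 6 h, 2 genes differed, 0.0142% of all. The effect on Fyb exceeded that at 6 h by 0.59 ± 0.090 (adjusted p = 0.0361) and the effect on Cyp4f15 by 0.60 ± 0.097 (adjusted p = 0.0453). At 6 h both genes had been lower with celastrol than with vehicle, by 0.17 and 0.20, and the vehicle levels there were higher than at 4 days. Without vehicle replicate 3 of 6 h neither gene passed in this comparison (adjusted p = 0.0673 for both). At 6 h no gene passed in the comparison of celastrol with vehicle by limma, which is 0% of those tested, with 1067 (7.55%) at an unadjusted p under 0.05.

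**Figure D4:**
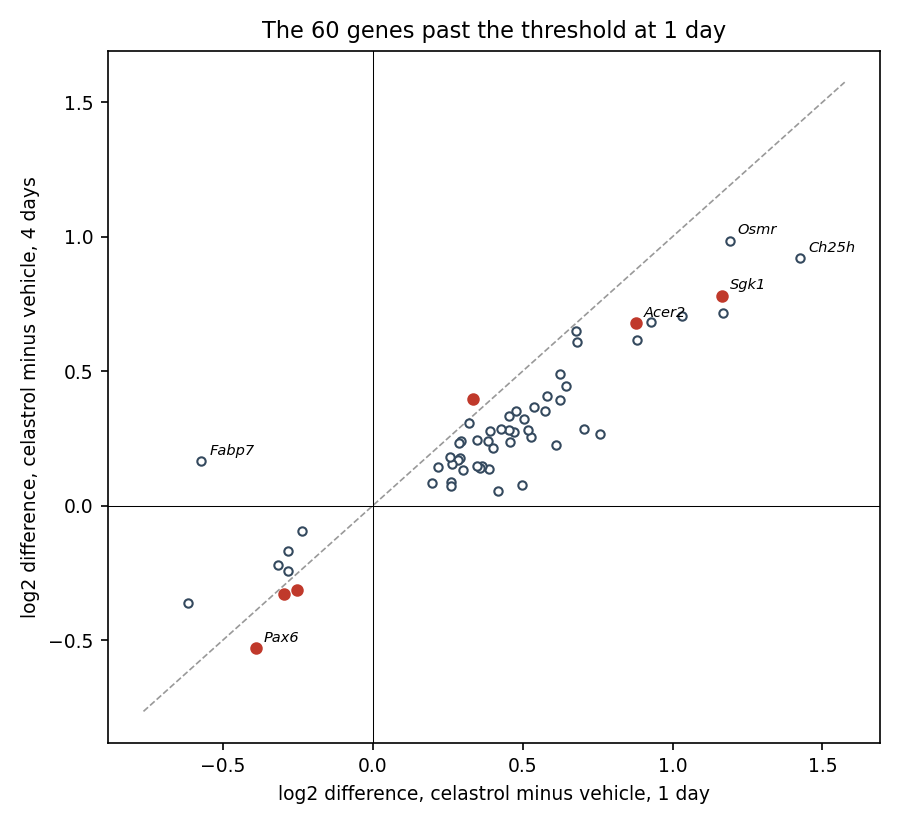
Log2 difference at 4 days (y axis) against that at 1 day (x axis), celastrol minus vehicle, for the 60 genes past the threshold at 1 day; filled points also passed at 4 days and the dashed line marks equal values. Fabp7 is the 1 gene of the 60 with opposite signs, and 56 of the 60 have the smaller size at 4 days.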

How the data were processed

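Hypothalamic RNA was measured on 20 Affymetrix Mouse Gene 1.0 ST arrays. The values deposited by the authors are log2 intensities for 23492 probe sets, normalized by RMA per the submitters' processing notes (version not given). Probe sets with 1 gene symbol (20228) were kept, the brightest per gene (18704 genes), and genes with a mean below the 25th percentile of all probe sets (7.04) were left out (4575), which left 14129. Array medians ran from 8.60 to 8.65. A model with 6 group means over all 20 arrays was fitted with limma 3.58.1 in R 4.3.3, with eBayes, 14 residual degrees of freedom and Benjamini-Hochberg adjustment over all genes at 0.05. The median standard error of a 4-day difference was 0.065, and the number of arrays limits the precision.

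The genes and the 43 gene lists (756 members, 625 tested) were chosen with earlier results of these data known. Genes to name were drawn from all those past the threshold, the 10 smallest p-values in each direction and up to 3 members per list. Further sets were appetite and stress genes, the 5 largest changes at 1 day in each direction and the 5 smallest p-values per time difference. Predicted genes were left unnamed, and not every other gene of these sets is shown in the text. Defining cell type markers were named where a list was checked. Positions and promoter sequences are from RefSeq, GRCm38.p6. Agrp and Il1r1 are not analysed here. Filters, scaling, probe set rule, fit and left-out arrays were varied.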

Additional observations from a re-analysis of the deposited data

Results flagged for a closer look

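The celastrol effect differed between times for 3 genes by limma's test of the difference. For Fabp7 the effect at 4 days exceeded that at 1 day by 0.74 on the log2 scale. For Cyp4f15 and Fyb the effect at 4 days exceeded that at 6 h by 0.60 and 0.59. In the celastrol group of 1 day, 1 of 4 arrays lay apart from the others for Cyp4f15 (9.46, the others 9.56 to 9.57) and for Pla2g4e (7.83, the others 7.95 to 7.97). Such gaps arise by chance in about 1 of 20 sets, and groups of 3 arrays, those of 4 days included, were not checked.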

How the results depend on the processing

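The count of 9 genes at 4 days became 2 with no filter on dim genes, 2 with the 6 arrays of 4 days alone, 2 with probe sets not collapsed, 3 with trended robust variances and 20 with array weights, and ran from 0 to 20 when 1 array was left out. Normalizing the arrays again by quantiles gave 3 higher and 3 lower calls in place of 6 and 3. Whether the replicate numbers pair the samples is not stated. The residual correlations of same-numbered arrays were -0.061, -0.042 and -0.017 at 4 days and -0.17, 0.29 and -0.12 at 6 h. At 1 day they were -0.29, -0.0063 and -0.29, and such few arrays cannot settle the pairing. A fit with the replicate block gave 3 genes at 4 days, 0 for 4 days against 1 day (413 at an unadjusted p under 0.05 in limma) and 1 for 4 days against 6 h. The single gene for 4 days against 1 day, Fabp7, passed in the other alternatives run. The 2 genes for 4 days against 6 h became 0 with no filter (1289 at an unadjusted p under 0.05), 1 with a filter at the 50th percentile, 0 with centred arrays (980), 4 with quantiles and 0 without both vehicle arrays that stand apart (873, an alternative chosen after seeing the data), and ran from 0 to 3 when 1 array was left out. The cause was not tested. With 1 array left out, 8 named genes, none past the threshold, changed sign: Cyp4f14 (-0.10 to 0.024), Smpd3 (-0.0031 to 0.13), Cd74 (-0.24 to 0.059), Lyve1 (-0.11 to 0.14), Crh (-0.24 to 0.076), Il1rn (-0.091 to 0.056), Hmox1 (-0.025 to 0.076) and Hspa1a (-0.043 to 0.082). The red blood cell list gave no value at the 50th percentile filter.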
